A study of Mus musculus with 48 samples.

Results

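The genes described here encode the subunits of the mitochondrial respiratory chain, complexes I to IV, and of the ATP synthase, complex V, together with the tissue isoforms of those subunits. They were taken by gene symbol: every probe set of the array whose single annotated symbol begins with Ndufa, Ndufb, Ndufc, Ndufs, Ndufv, Uqcr, Cox4 to Cox8 or Atp5, or is Sdha, Sdhb, Sdhc or Sdhd. This gave 156 of 22626 probe sets, for 84 of the 12393 genes with a single symbol. Complex I had 34 genes, complex II 4, complex III 8, complex IV 16 and complex V 17, and 5 more (Ndufaf1, Ndufaf3, Ndufaf4, Ndufaf5 and Ndufaf7) encode complex I assembly factors, which are not subunits and are kept apart below. Of the 84 genes, 39 had 1 probe set and 45 had several, and each is represented by its brightest one.

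RNA of mice, bought from a supplier, was measured on 48 Affymetrix arrays in 8 groups: male liver, female liver, male kidney, female kidney, male hypothalamus, female hypothalamus, testis and ovary. Each group had 3 RNA samples of 2 arrays each, averaged here, so n = 3 per group. The labels call the tissues healthy and describe each RNA sample as a pool of 10 animals. Whether the 3 samples of 1 group came from different pools is left unstated, and the p-values then reflect only the spread between these samples, which may be technical. No strain, age or treatment is named. The labels conflict on the RNA: their molecule field gives total RNA for every sample, while their descriptions give total RNA for hypothalamus and polyA RNA for the other tissues. If the descriptions hold, the kind of RNA cannot be told apart from the tissue wherever hypothalamus is compared with another tissue. The series asks, by its title, which transcripts differ between the sexes.

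Complex I takes electrons from NADH and complex II from succinate, and both pass them through ubiquinone to complex III. Cytochrome c carries them on to complex IV, cytochrome c oxidase, which reduces oxygen, and the proton gradient built on the way drives ATP synthesis by complex V. Most subunits are encoded in the nucleus, and some subunits of complex IV exist as paralogs used in heart and skeletal muscle (Cox6a2, Cox7a1, Cox8b) or in testis (Cox6b2, Cox8c), beside forms used broadly (Cox6a1, Cox7a2, Cox8a, Cox6b1).

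The 4 sequences below are RefSeq promoters of build GRCm38.p6, cut to the 200 bases before the annotated start and written 5′ to 3′ along the gene. They are shown because Cox6b1 and Cox6b2 are a pair of paralogs with opposite levels in testis, and because Sdhb and Uqcr11 were among the members with the clearest deficit in hypothalamus. Capitals mark a match to the NRF-1 core GCATGCGC or to the ETS motif CCGGAAG on either strand.
Cox6b1, chr7:30626115-30626314, minus strand: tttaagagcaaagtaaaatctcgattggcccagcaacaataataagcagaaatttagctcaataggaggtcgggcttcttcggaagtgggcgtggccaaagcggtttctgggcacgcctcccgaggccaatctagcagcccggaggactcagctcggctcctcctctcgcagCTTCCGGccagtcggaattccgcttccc
Cox6b2, chr7:4753095-4753294, minus strand: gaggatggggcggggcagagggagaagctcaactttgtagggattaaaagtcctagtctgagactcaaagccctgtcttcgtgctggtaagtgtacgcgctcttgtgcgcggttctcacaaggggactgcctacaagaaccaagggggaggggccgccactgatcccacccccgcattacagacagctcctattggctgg
Sdhb, chr4:140961071-140961270, plus strand: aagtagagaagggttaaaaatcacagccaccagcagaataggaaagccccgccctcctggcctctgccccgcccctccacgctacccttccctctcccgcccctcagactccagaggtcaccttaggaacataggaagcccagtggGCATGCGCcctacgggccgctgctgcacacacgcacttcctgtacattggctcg
Uqcr11, chr10:80406822-80407021, minus strand: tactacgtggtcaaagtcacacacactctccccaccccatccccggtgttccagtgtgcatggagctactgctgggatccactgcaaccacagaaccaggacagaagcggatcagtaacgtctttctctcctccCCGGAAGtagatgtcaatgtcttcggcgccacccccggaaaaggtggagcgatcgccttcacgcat

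Promoters of 300 bases, from 250 before to 50 after the start, were found for 70 of the 84 genes. The NRF-1 core was present in 15.7% of the 70, against 3.05% of the 27025 genes of the whole promoter table. CCGGAAG was present in 25.7% against 9.93%, the YY1 core AAGATGGCG in 8.57% against 1.64%, and the cAMP element TGACGTCA in 4.29% against 2.03%, each on either strand. Sdhb and Uqcr11 held both the NRF-1 core and CCGGAAG within the 300 bases, of which 1 match each lies in the stretch shown. Sdhd and Uqcrfs1, with deeper deficits in hypothalamus, are not shown: Sdhd held CCGGAAG but not the NRF-1 core, and Uqcrfs1 held neither. Cox6b1 had CCGGAAG on the opposite strand, 28 to 22 bases before its start, while none of the 4 motifs was found in the 300 bases of Cox6b2. These matches describe the letters only.

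The arrays share a trimmed mean intensity near 500, with medians of 163.3 to 275.95, and their number limits the precision. Tissue labels were matched by summed intensities of marker genes. The sum of 8 germ cell genes was 83672 to 110392 in testis and at most 592 elsewhere. The sums of 5 kidney genes, 6 hypothalamus genes and 6 ovary genes were each highest in their own tissue. The 4 liver genes on the array summed to 64786 to 75773 in liver. They summed to 3502 to 8429 in kidney, 8657 to 15422 in hypothalamus and 268 to 964 in testis and ovary. In hypothalamus against liver and kidney 1 of these 4 was called higher and 3 lower, where 44.8% and 35.9% of all genes were. In these bulk tissues, fewer cells of a type and less RNA per cell cannot be told apart.

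Respiratory chain genes were bright: 68 of the 78 subunit genes measured lay above the 90th percentile of intensity, averaged over samples, and the median percentile was 96.4. Of the 84 genes, 83 lay above the filter on low values (the 40th percentile of a sample) in at least 3 of the 24 samples. The exception was Cox7c, a complex IV subunit whose better probe set read 19.3 to 123 in all samples. Levels varied between tissues, but within limits for most: the log2 range over the 5 tissue means had a median of 1.21 among the 68 bright subunit genes, against 1.51 among all 818 genes above that percentile. The range was widest in complex IV, from 0.48 to 6.13.

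Kidney held the highest mean of the 5 tissues for 55 of the 83 genes, against 13.5% of all 10721 genes measured, and the lowest mean for 0 of them, against 15.7%. Testis was highest for 14 (background 24.2%), liver for 9 (16.0%), hypothalamus for 3 (26.5%) and ovary for 2 (19.9%). Ovary was lowest for 30 (background 8.39%), testis for 24 (33.8%), hypothalamus for 21 (16.9%) and liver for 8 (25.2%). The genes for which every kidney sample exceeded every sample of the other tissues numbered 15, against 5.36% of all genes. They included Ndufs1, Ndufs7 and Ndufs8, iron-sulfur subunits of complex I, and Sdhb, that of complex II. For Ndufs8 this holds for its brightest probe set, as its probe sets were called in both directions in kidney against liver. Across the 8 group means, 40 of 78 subunit genes had a Pearson correlation above 0.8 with the median profile of the other subunits, and 6 had one below 0, among them Cox4i2 at -0.63, Ndufb1 at -0.37, Cox8c at -0.35, Cox6a2 at -0.23 and Cox6b2 at -0.20. These correlations share the scaling of the arrays and are a description.

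**Figure D1:**
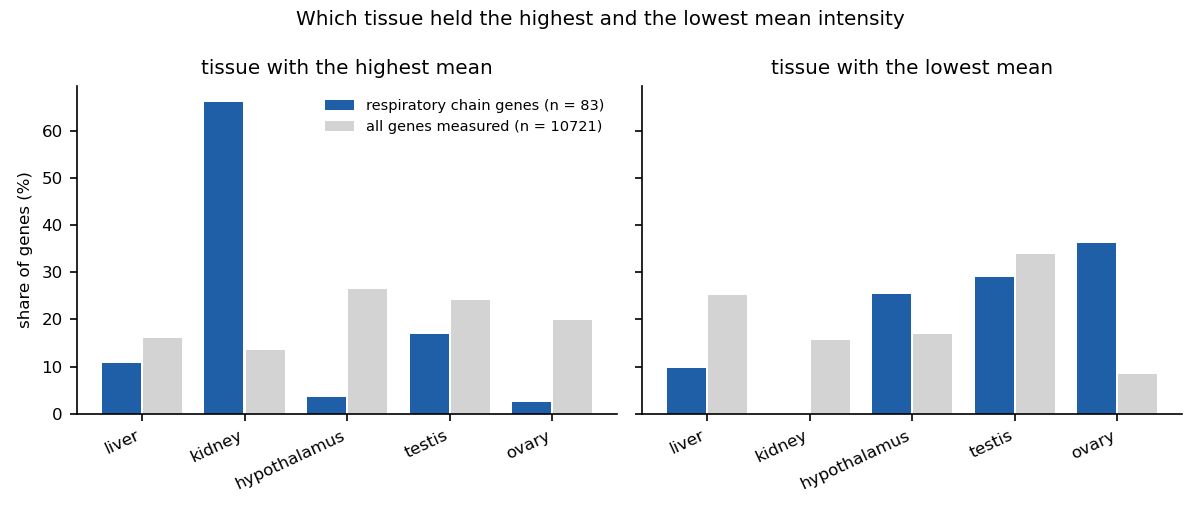
Share of genes (%) whose highest (left) or lowest (right) mean intensity fell in each tissue, for the 83 respiratory chain genes measured (blue) and all 10721 genes measured (grey). Kidney was the highest for 55 respiratory chain genes and the lowest for 0, and ovary was the lowest for 30.

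The largest contrasts lay in testis. Against the male samples of the other tissues, 16 of the 82 genes tested were higher and 44 lower (limma with Benjamini-Hochberg adjustment over all probe sets, adjusted p under 0.05), where 75.9% of all genes were called, 30.0% higher and 45.9% lower. The split stood at 19 higher and 31 lower after median centring, which moved the differences of all probe sets tested by a median of 0.179. The share of members called was thus near the background, and the description turns on which members differed. The values of 8 genes lay above, and of 21 below, those of all the male samples without overlap, against 20.1% and 18.1% of all genes.

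Cox6b2, the testis form of a complex IV subunit on the side facing the intermembrane space, read 9090.4, 8501 and 9226 in the 3 testis samples. In the other 21 samples it read between 49.7 and 438, so the groups did not overlap. Testis exceeded the male liver, kidney and hypothalamus by 5.59 ± 0.14 (SE) on the log2 scale (limma adjusted p = 5.83e-13) and ovary by 4.90 ± 0.14 (adjusted p = 1.24e-08). Its broad paralog Cox6b1 went the other way, with 1469, 1240.4 and 1909 in testis against 4920.2 to 11328 in all other samples. It was lower in testis by 2.32 as log2 (-2.32 ± 0.13, limma adjusted p = 1.57e-09), and its second probe set differed by -1.80.

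Cox8c, the testis form of the small membrane subunit 8, showed the same opposition with Cox8a. Cox8c read 9239, 7824 and 9955 in testis and 378 to 865 elsewhere, a difference from the male tissues of 3.67 ± 0.13 (limma adjusted p = 1.4e-11). Cox8a read 1851, 1935 and 2076 in testis and 5559 to 14156 elsewhere, a difference of -2.16 ± 0.11 (adjusted p = 6.6e-10). Testis values of each gene lay entirely on one side of all other samples. The other complex IV paralogs did not divide in this way: Cox6a1 differed by -0.35 ± 0.10 (adjusted p = 0.00804), which did not pass after median centring, at -0.17. Cox7a2 differed by 0.35 ± 0.11 (adjusted p = 0.00896), Cox4i1 did not pass, and Cox4i2, a paralog known from lung, did not pass at 209 in testis and 207 in the male tissues.

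Ndufa4, whose protein was first placed in complex I and later assigned to complex IV, had the largest deficit. It read 917, 733 and 652 in testis, 4082 to 4347 in ovary and 4605 to 8229 in the 18 samples of the other tissues. The difference from the male tissues was -3.00 ± 0.12 (limma adjusted p = 2.94e-11) and from ovary -2.39 ± 0.17 (adjusted p = 1.64e-06). Ndufa4l2, its paralog, had no probe set with its symbol alone, nor had Cox7b and Cox7b2.

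Ndufaf3, an assembly factor of complex I, read 9011, 8999.7 and 9717 in testis, against 565 to 1347 in all other samples. The difference from the male tissues was 3.32 ± 0.11 (limma adjusted p = 5.72e-12). Among complex I subunits, Ndufb1, a small membrane-arm subunit, read 1876, 2053 and 1203 in testis and 194 to 469.8 elsewhere (2.18 ± 0.15, adjusted p = 1.43e-08). Ndufv2, an iron-sulfur subunit of the NADH-oxidising module, was 8743 in testis and 4869.6 in the male tissues (0.87 ± 0.11), and its other probe sets differed by 0.86 and 1.23. Every testis sample exceeded all other samples for Cox6b2, Cox8c, Ndufaf3, Ndufb1, Ndufv2 and Ndufa7, 6 of 83 genes against a background of 16.2%. Every testis sample lay below all others for 13 of 83 genes, against a background of 14.9%, among them Ndufa4, Cox6b1, Cox8a and Ndufb11.

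Ndufb11, an X-linked subunit of complex I, read 1422, 981 and 1649 in testis and 2918 to 8286 elsewhere. Its difference from the male tissues was -2.01 ± 0.14 (limma adjusted p = 1.13e-08), and its other probe sets gave -2.10 and -2.09. The other X-linked member, Ndufa1, differed by -0.63 ± 0.11 (adjusted p = 0.000178), with testis values of 5218, 4993 and 3944 that overlapped those of male hypothalamus (5200.2, 4958 and 5034). Ndufv3, an accessory subunit beside Ndufv1 and Ndufv2, was lower by -1.86 ± 0.23, and Ndufa10, an accessory subunit of the matrix side, by -1.57 ± 0.21. Complex I therefore held called genes of both directions, 9 higher and 17 lower of 34.

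Complexes II and V lay to one side. All 4 complex II genes were lower in testis: Sdhc and Sdhd, the membrane anchors, by -1.20 ± 0.11 and -1.13 ± 0.13, Sdha, the flavoprotein, by -1.09 ± 0.16, and Sdhb by -0.44 ± 0.11. Of 17 complex V genes, 13 were lower and 0 higher. The 3 genes for the membrane-embedded c subunit, Atp5g1, Atp5g2 and Atp5g3, were lower by -1.51 ± 0.16, -1.37 ± 0.17 and -1.03 ± 0.12, and the catalytic beta subunit Atp5b by -0.62 ± 0.10. Complex III was divided, with 2 genes higher and 4 lower of 8, among them Uqcrc1, a core protein, at 0.53 ± 0.12 and Uqcr11 at -0.89 ± 0.11. The other core protein, Uqcrc2, differed by -0.54 (limma adjusted p = 0.00754), a call lost without testis replicate 2 (adjusted p = 0.0773) and after median centring (0.0676).

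**Figure D2:**
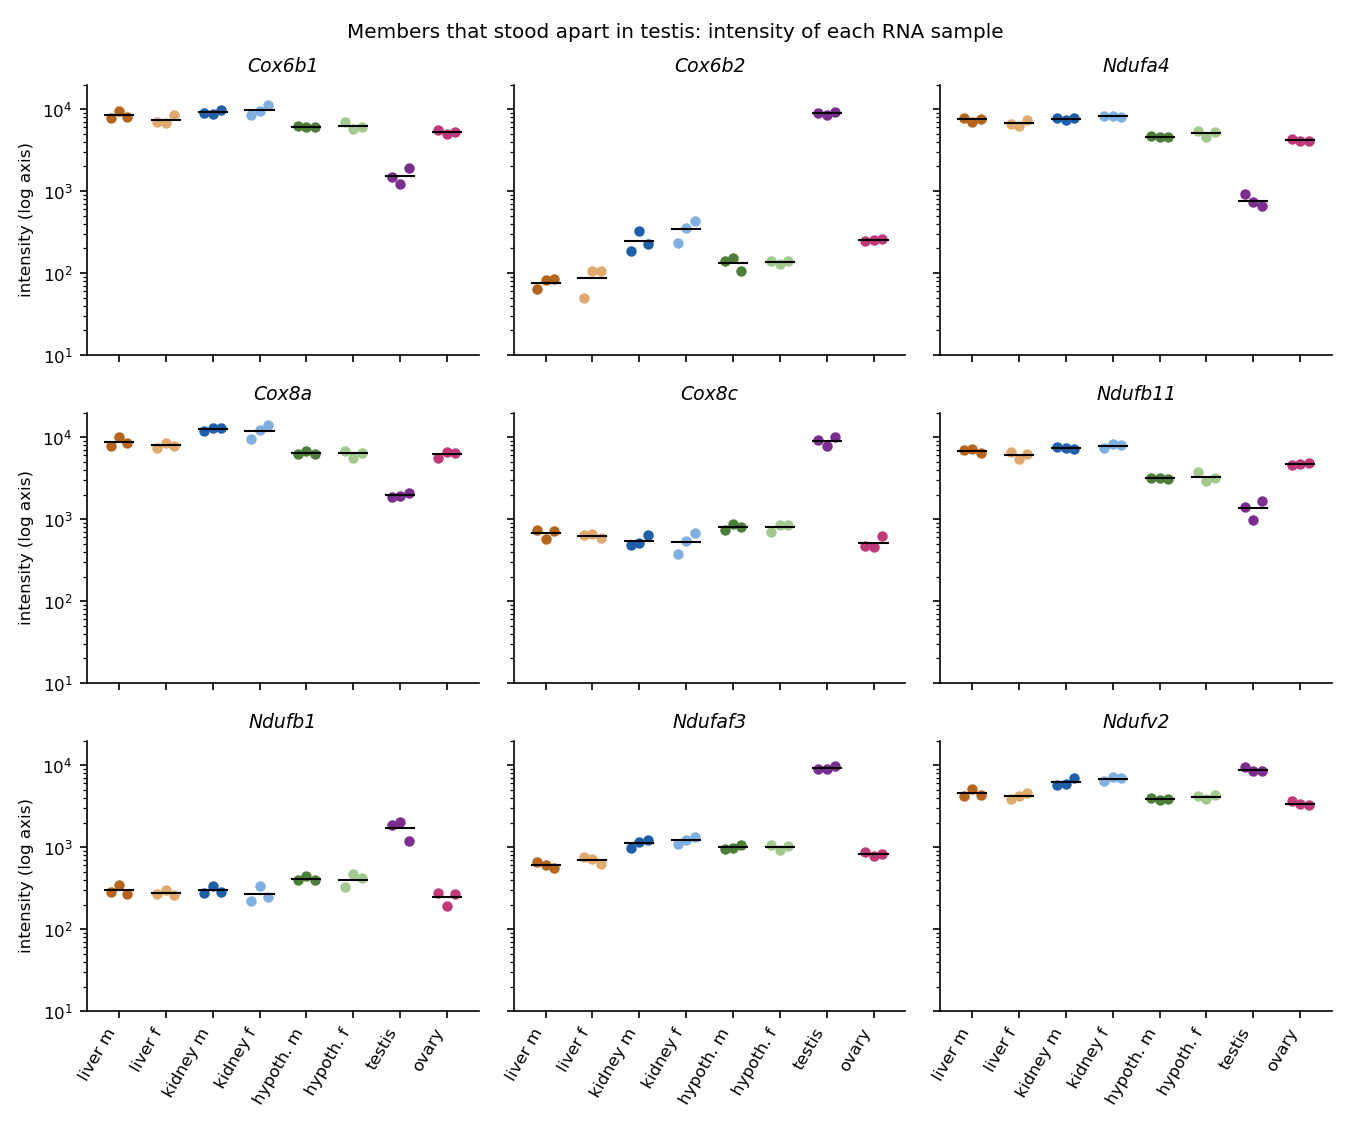
Intensity (log axis) of 9 members in each RNA sample of the 8 groups (m, male; f, female). Points are RNA samples and bars are group means of n = 3. Testis reads high for Cox6b2, Cox8c, Ndufaf3, Ndufb1 and Ndufv2 and low for Cox6b1, Cox8a, Ndufa4 and Ndufb11.

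Testis and ovary differed for 38 of 81 genes tested, 24 higher and 14 lower in testis, where 71.1% of all genes were called, 26.0% higher and 45.1% lower. This split depended on the scale. Quantile normalization, which moved the differences of all probe sets tested by a median of 0.279, gave 20 higher and 24 lower. Median centring, which moved them by a median of 0.369, gave 43 and 5. Without overlap lay 29 genes above and 16 below, against 28.1% and 47.4% of all genes. On the common scale the members' median difference was 0.13 and that of all genes -0.33. Complex I had 15 genes higher, such as Ndufb8 at 1.27 ± 0.19 and Ndufb5 at 0.88 ± 0.17, both membrane-arm subunits, and 6 lower. Complex V had 0 higher and 3 lower, Atp5g2 (-1.47 ± 0.25), Atp5g3 (-0.79 ± 0.17) and Atp5a1, the alpha subunit, at -0.60 ± 0.19. Median centring ended the call of Atp5g3 (-0.42, limma adjusted p = 0.0594). The call of Atp5a1 was lost without testis replicate 2 (limma adjusted p = 0.0551) and without ovary replicate 3 (0.0608), and after median centring (0.305). Uqcrc1 was higher in testis by 1.12 ± 0.17 and Cox5a, a core-facing complex IV subunit of the matrix side, by 0.74 ± 0.15.

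**Figure D3:**
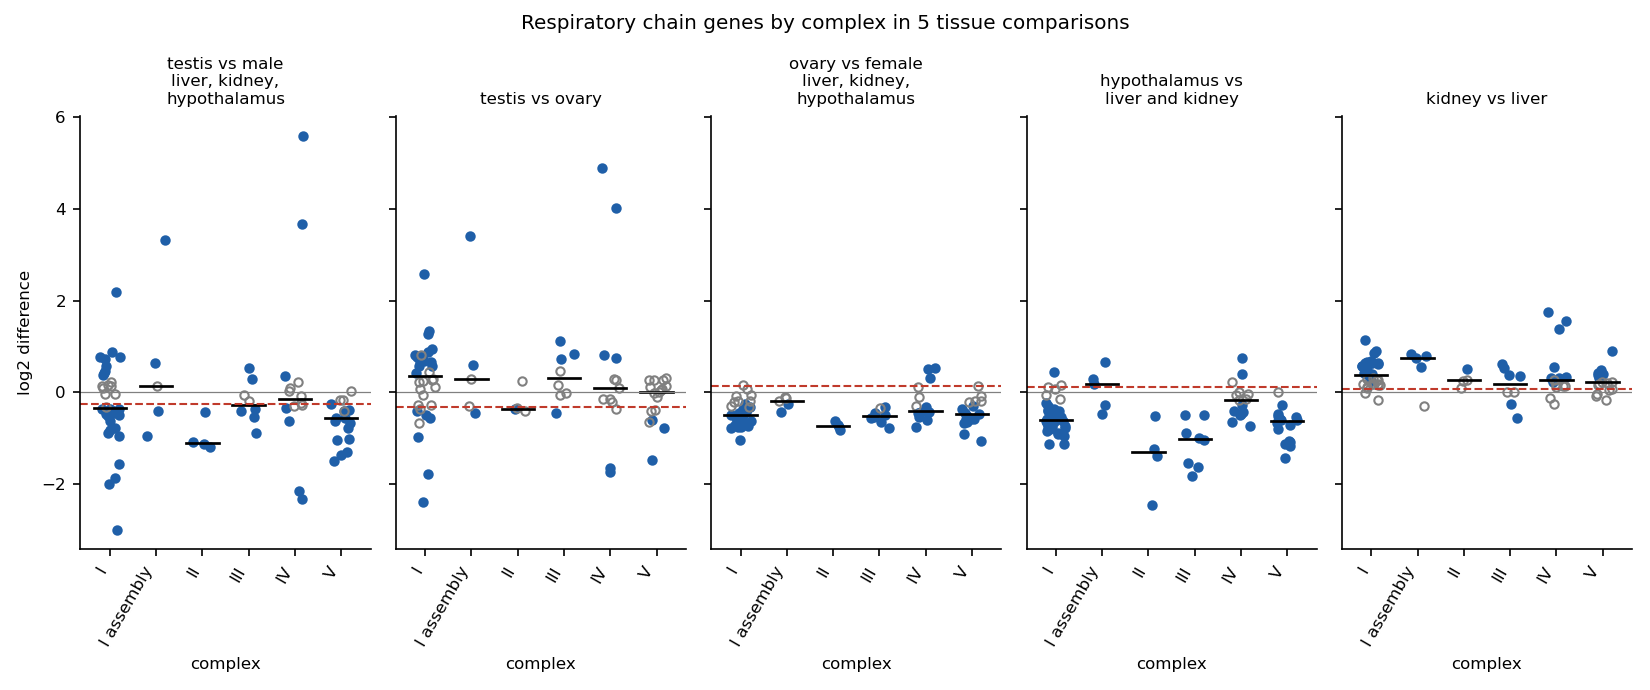
Log2 difference of every tested respiratory chain gene, by complex, in 5 tissue comparisons. Filled points passed the limma adjusted p of 0.05 and open points did not, black bars are medians by complex, and the red dashed line is the median of all genes tested. The points above 3 in the testis panels are Cox6b2, Cox8c and Ndufaf3, and complexes II and III lie below 0 in hypothalamus.

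Ovary showed a broader deficit than testis, whose members' median against the male tissues was -0.37, with -0.26 for all genes. It was not deeper throughout: the largest single deficit was -1.07 in ovary and -3.00 in testis. The medians of complexes II and V were also shallower in ovary, at -0.74 and -0.48 against -1.11 and -0.56. Those of complexes I, III and IV were deeper in ovary, at -0.50, -0.52 and -0.41 against -0.34, -0.29 and -0.16. Against female liver, kidney and hypothalamus, 59 of 83 genes were lower and 3 higher, where 61.4% of all genes were called, 23.5% lower and 37.9% higher. Without overlap lay 1 gene above and 20 below, against 17.1% and 3.20% of all genes. The members' median difference was -0.46 and that of all genes 0.13. Quantile normalization and median centring moved the differences of all probe sets tested by medians of -0.134 and -0.179. White fat markers moved with this comparison: 3 of 5 were on the array, and their sum was 9648 to 15238 in ovary and at most 4596 in the female samples of the other tissues. Both of the 2 tested were higher in ovary, Adipoq, a fat cell hormone, at 5447 against 381 and Fabp4, a fatty acid binding protein, at 6480.2 against 1125. Their part in the members' deficit was not tested. The largest deficits were those of Atp5g1 (-1.07 ± 0.13) and Ndufb10, a complex I accessory subunit, at -1.04 ± 0.13. Ndufb10 read 710.4, 749 and 755 in ovary as lowest, median and highest, below every sample of the other tissues, which reached down to 1019.8 in testis. Every ovary sample lay below all others for 7 of 83 genes, against a background of 0.597%: Ndufb10, Ndufb6, Ndufb9, Ndufa13, Ndufv2, Cox4i1 and Cox5a. For Cox4i1, the broad form of complex IV subunit 4, ovary read 5604 to 5908 and all other samples 6138 to 9602, a narrow gap (-0.41 ± 0.09, limma adjusted p = 0.00132) that did not pass after quantile normalization, at -0.18.

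The 3 genes higher in ovary were complex IV isoforms or relatives. Cox4i2 read 284, 270.0 and 305, above the female samples of the other tissues (0.50 ± 0.13, limma adjusted p = 0.00449), a call lost on the first arrays alone (0.109). Cox7a2l, which encodes a factor that joins complexes III and IV, differed by 0.32 ± 0.11 (adjusted p = 0.0223), a call lost without ovary replicate 1 (0.11), without ovary replicate 3 (0.102), on the first arrays alone (0.33) and after median centring (0.289). Cox6b2 differed by 0.52 ± 0.16 (adjusted p = 0.0143), lost without ovary replicate 3 (0.0528) and after quantile normalization (0.0898) or median centring (0.0993) and on the first arrays alone (0.0564).

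Hypothalamus was compared with liver and kidney of both sexes, 6 samples against 12. Of 83 genes, 65 were lower and 6 higher, where 80.7% of all genes were called, 35.9% lower and 44.8% higher. Without overlap lay 1 gene above and 47 below, against 28.4% and 17.1% of all genes. The members' median was -0.58 and that of all genes 0.11. Quantile normalization moved the differences of all probe sets tested by a median of -0.259 and gave 46 lower and 12 higher members. Some bright members moved the other way under it, as given for complex IV below. Median centring moved the differences by a median of -0.35 and gave 74 and 2. Every hypothalamus sample lay below all other samples for 9 of 83 genes, against a background of 5.64%.

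Complexes II and III carried the deepest deficits: all 4 genes and all 8 genes were lower. Sdhd, a membrane anchor of succinate dehydrogenase, read 943 to 1138 in hypothalamus (median 1012), 4051 to 6127 in liver (5508) and 5918 to 7256 in kidney (6137). The difference was -2.46 ± 0.09 (limma adjusted p = 1.42e-14), and a second, dimmer probe set gave -0.83. Sdhc, the other anchor, differed by -1.38 ± 0.08, Sdhb by -1.24 ± 0.07 and Sdha by -0.51 ± 0.08. Every hypothalamus sample lay below every liver and kidney sample for Sdhb, Sdhc and Sdhd.

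Uqcrq, a small subunit of complex III, read 1797 to 2321 in hypothalamus (median 2032), 8099 to 10065 in liver (8961) and 5514 to 6719 in kidney (5873). The difference was -1.83 ± 0.07 (limma adjusted p = 1.13e-13). Its other probe sets were dim, with the highest at 252, and did not pass (-0.22 and 0.21). The Rieske iron-sulfur protein Uqcrfs1 differed by -1.64 ± 0.08 and Uqcr11 by -1.55 ± 0.07. The core proteins Uqcrc2 and Uqcrc1 differed by -1.04 ± 0.09 and -0.90 ± 0.07.

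Complex V had 16 of 17 genes lower, led by Atp5l, subunit g of the membrane part, at -1.44 ± 0.08 (1819.6 to 2409.9 in hypothalamus, 4128 to 7626 in liver and kidney). The catalytic Atp5b differed least among those called, by -0.27 ± 0.07. Complex I had 28 of 34 lower, from Ndufa6 and Ndufb11 at -1.13 each to Ndufb3 at -0.23. Complex IV had the smallest median deficit, at -0.18, with 7 lower and 2 higher of 15. This median covers dim tissue isoforms: 9 of the 15 lay above the 90th percentile of intensity, and the 2 higher genes were Cox6a2 and Cox8c. Of the broad complex IV forms, Cox8a differed by -0.66 ± 0.09. Cox6b1 (-0.48) and Cox7a2 (-0.49) lost their calls after quantile normalization, at -0.03 and -0.01. Under the same setting Cox6a1 (-0.28) turned to 0.20 (limma adjusted p = 0.0047).

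Among the 6 higher genes, Cox6a2 had the largest difference. This heart and muscle form read 345, 302 and 313 in male and 510.3, 388 and 395 in female hypothalamus, above every one of the 18 samples of the other tissues, which read 125 to 267. The difference from liver and kidney was 0.75 ± 0.09 (limma adjusted p = 6.61e-07), 0.42 after quantile normalization and 0.40 after median centring. Of the muscle markers, 8 of 8 were on the array, and their summed intensity was 889 to 2713 in female and 779 to 891 in male hypothalamus against 323 to 757 in liver and kidney. Acta1, skeletal muscle actin, read 1148 in the same female sample in which Cox6a2 was highest, and 115 to 458 in the other hypothalamus samples. Without that sample the Cox6a2 difference was 0.69, with Acta1 still at up to 458 in the hypothalamus samples kept. The part of muscle RNA in the Cox6a2 difference was not tested. The others were Ndufaf5 (0.66 ± 0.11), Ndufb1 (0.45 ± 0.09), Cox8c (0.40 ± 0.10), Ndufaf7 (0.28 ± 0.07) and Ndufaf3 (0.19 ± 0.07), of which Cox8c lost its call (0.05) and Ndufaf7 turned to -0.07 after median centring.

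Kidney exceeded liver for 44 of 83 genes and was lower for 2, where 57.1% of all genes were called, 33.6% higher and 23.5% lower. Quantile normalization called 73 members, 70 higher and 3 lower. It moved the differences of all probe sets tested by a median of -0.069, but bright members could move the other way, such as Uqcrb below. Without overlap lay 29 genes above and 2 below, against 23.3% and 15.0% of all genes. Complex I had 20 higher and 0 lower of 34. Ndufs1, the largest iron-sulfur subunit of complex I, read 3002 to 4429.8 in kidney (median 3477) and 1407 to 1777 in liver (1574), a difference of 1.15 ± 0.11 (limma adjusted p = 1.32e-06). Ndufa5 differed by 0.89 ± 0.10 and Ndufab1, the mitochondrial acyl carrier protein, by 0.86 ± 0.12. In complex V, Atp5o, which encodes the stalk protein OSCP, led with 0.91 ± 0.20.

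Both lower genes belonged to complex III. Uqcrq differed by -0.57 ± 0.09 (limma adjusted p = 0.000144), with no overlap between the tissues. Uqcrb, another small subunit, read 13519 to 14725 in kidney and 16429 to 17730.3 in liver (-0.26 ± 0.08, adjusted p = 0.0105), but turned to 0.27 after quantile normalization (adjusted p = 0.02). For both genes every liver sample exceeded all other samples, 2 of 83 against a background of 6.87%.

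The largest kidney differences belonged to dim complex IV paralogs. Cox7a1, the heart and muscle form of subunit 7a, read 289.6, 282 and 256 in male and 472, 397 and 308 in female kidney, 38 to 88 in liver and at most 146 in any other sample. Kidney exceeded liver by 1.76 ± 0.12 (limma adjusted p = 5.85e-08). Cox8b, the muscle and brown fat form of subunit 8, read 124, 137 and 125 in male and 171, 175 and 202 in female kidney and 15.9 to 31.4 in liver, near the low end of the scale (1.55 ± 0.09, adjusted p = 1.21e-08). With 4 times the pseudocount, which stood at 48.3, these differences became 1.03 and 0.70. Cox6b2 also exceeded liver in kidney, at 295 against 82.1 (1.37 ± 0.17). In the liver samples alone Cox7a1, Cox8b and Cox6b2 did not pass the filter on low values. They entered this comparison through kidney samples, where they are high, and their p-values carry that limit.

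Markers of fat, muscle and exocrine pancreas are given for comparison. Of the pancreas markers, 6 of 7 were on the array and summed to 7207 to 34643 in liver and 2537 to 4674 in kidney. In kidney against liver 5 of the 6 were lower and 0 higher, with a median of -3.94. Among them Cel, a pancreatic lipase, was 165 in kidney and 1919.9 in liver. The sums were at most 936 in hypothalamus and 1679 in testis and ovary, so these markers also moved with the comparisons of those tissues with liver and kidney, and their part in the members' differences was not tested. Muscle markers summed to 323 to 506 in kidney and 516 to 757 in liver. Of the brown fat markers, 4 of 4 were on the array and summed to 386 to 521 in kidney and 306 to 876 in liver. The list was divided: of 3 tested in kidney against liver, 1 was called higher and 1 lower, with a median of -0.00. Among all genes 33.6% were called higher and 23.5% lower. Ucp1, the uncoupling protein that defines brown fat, read 24.3 to 77.8 in kidney and 7.2 to 11.7 in liver, while Cidea, a lipid droplet protein of brown fat, read 151 to 210.2 against 11.7 to 31.2. White fat markers, 3 of 5 on the array, summed to 1997 to 4596 in kidney, 453 to 968 in liver and 9648 to 15238 in ovary, where Cox7a1 read 94.6 to 107. The part of fat or muscle RNA in the kidney values of Cox7a1 and Cox8b was not tested.

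**Figure D4:**
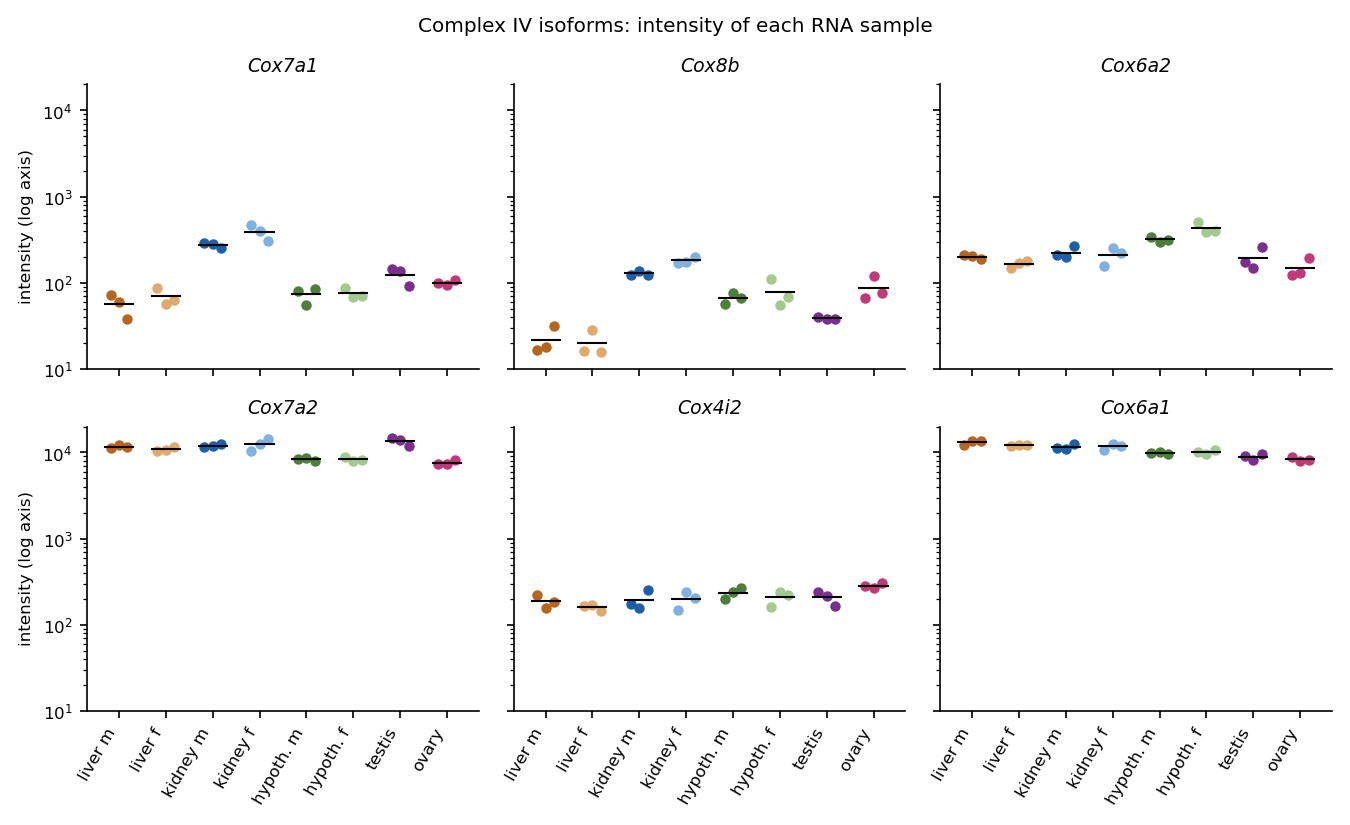
Intensity (log axis) of 6 complex IV isoforms in each RNA sample of the 8 groups (m, male; f, female). Points are RNA samples and bars are group means of n = 3. Cox7a1 and Cox8b read highest in kidney and Cox6a2 in hypothalamus, while the broad forms Cox7a2 and Cox6a1 read 7324 to 14614 and 7983 to 13638 over all samples. Levels of different genes are not comparable.

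Male and female tissues did not differ for any member after adjustment. In liver 0 of 80 genes passed, where 0.0351% of all genes were called, 0.0234% higher and 0.0117% lower in males. In kidney it was 0 of 83, where 0.295% were called, 0.177% higher and 0.118% lower. In hypothalamus it was 0 of 80, where 0.0244% were called, 0.0122% in each direction. At an unadjusted limma p under 0.05 the counts were 1, 2 and 1, where 1.98%, 5.16% and 1.91% of all genes passed, so the members' shares were at or below the background. The lowest adjusted p was 1, 0.813 and 1. In liver 68 of the 80 genes were higher in males by sign and the median difference was 0.11, where 48.7% of all genes were higher. The median deviation of the 75 subunit genes from the liver mean was 0.008, 0.147 and 0.042 in males and -0.133, -0.065 and 0.028 in females, so the sexes overlapped, with female sample 3 above male sample 1. Male and female liver samples of the same number had correlated deviations for numbers 1 and 3 (0.535 and 0.48). Number 2 (0.138) lay below the 0.288 that a pair of different numbers reached. Within each of the 3 numbers the male median was the higher. With the number as a block, 0 genes passed. The values of 13 genes did not overlap between the sexes, all 13 higher in males, where 3.29% of all genes lay apart higher and 3.14% lower.

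In kidney the sign ran the other way, with 61 of 83 genes lower in males and a median of -0.06, where 48% of all genes were higher. The kidney medians were -0.037, -0.063 and 0.009 in males and -0.077, 0.050 and 0.128 in females, again overlapping. The lowest p belonged to the dim paralogs. Cox8b was 129 in male and 183 in female kidney (-0.39 ± 0.14, limma adjusted p = 0.813), and Cox7a1 was 276 and 392 (-0.43 ± 0.17, adjusted p = 0.952). The 3 male values lay below the 3 female values for each of these, as for 7 genes in all, where 5.55% of all genes lay apart lower and 4.49% higher.

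In hypothalamus 38 members were higher and 42 lower in males by sign, and without overlap lay 1 above and 4 below, where 3.05% and 3.24% of all genes did. Cox6a2 had the lowest p, at 320.4 in males and 431 in females (-0.38 ± 0.12, limma adjusted p = 1), and the muscle markers noted above were also higher in 2 female samples, with Acta1 at 1148 and 458. The male-female difference itself did not differ between tissues for any of 83 genes: kidney against liver gave 0 calls where 0.300% of all genes were called, 0.200% higher and 0.0999% lower. Hypothalamus against liver gave 0 calls (background 0.0300%, 0.00999% higher and 0.0200% lower), and hypothalamus against kidney 0 (0.260%, 0.0699% higher and 0.190% lower). At an unadjusted limma p under 0.05 there were 3, 2 and 1 genes, where 4.99%, 1.76% and 3.97% of all genes passed. By sign, the male-female difference was lower than in liver for 72 of 83 genes in kidney and for 69 of 83 in hypothalamus, where 48.1% and 50.1% of all genes were higher. Both of these comparisons share the liver samples.

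**Figure D5:**
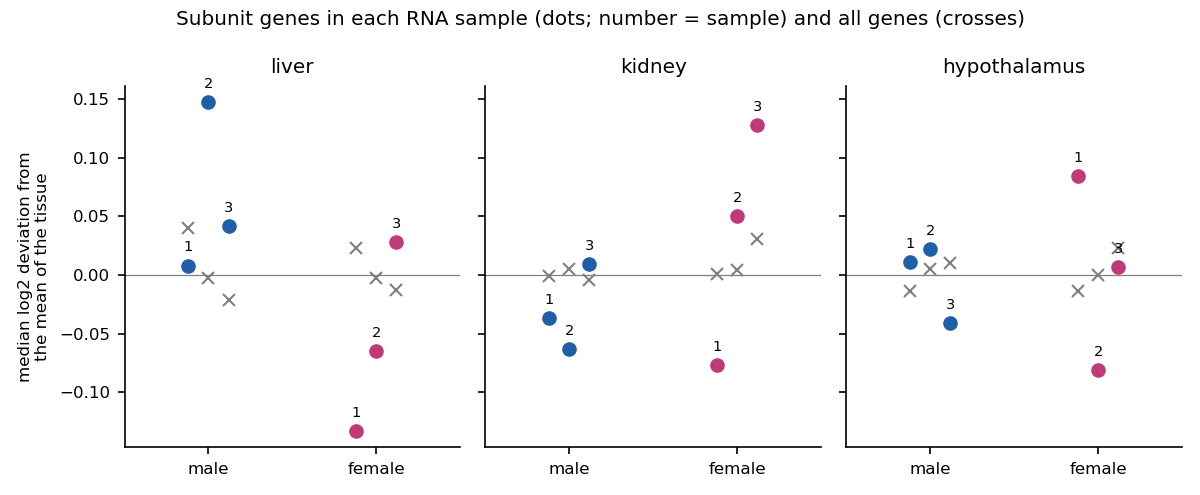
Median log2 deviation from the mean of both sexes of the tissue, over the subunit genes tested (dots, labelled by sample number) and over all genes (crosses), in each RNA sample of liver, kidney and hypothalamus. Male and female dots overlap in all 3 tissues, at 0.008 to 0.147 and -0.133 to 0.028 in liver.

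Probe sets of one gene did not always agree. In testis against the male tissues, Ndufa7 and Ndufs4 had probe sets called in both directions. For Ndufa7, 4 probe sets gave 0.76 to 0.95 and the fifth, the dimmest, -0.37. For Ndufs4, which encodes a subunit needed for complex I assembly, the brightest gave 0.73 and the dimmest -0.54. Kidney against liver had such conflicts for Cox5a, Cox5b and Ndufs8, and hypothalamus for Atp5c1, Cox5b, Ndufaf4 and Ndufs4. In Cox5b the dissenting probe set read 108 to 268 while the brightest read 5008 to 11838, and in Atp5c1 it read 23.6 to 194 against 4029 to 12306. Cox6b2, Cox8c, Ndufa4, Ndufaf3, Ndufb1, Cox7a1 and Cox8b rest on 1 probe set each.

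Genes around the chain were taken from lists of carriers and citric acid cycle enzymes. In testis against the male tissues, 1 of 12 citric acid cycle genes was higher and 10 were lower, where 30.0% and 45.9% of all genes were called, with a list median of -1.16 against -0.26 for all genes. Mdh2, malate dehydrogenase, was 1374 against 4807 (-1.75 ± 0.15), and citrate synthase Cs differed by -1.49 ± 0.15. The exception was Sucla2, a subunit of succinyl-CoA synthetase, at 1.19 ± 0.13. In kidney against liver 10 of 12 were higher and 0 lower, where 33.6% and 23.5% of all genes were called, such as Idh3g, of isocitrate dehydrogenase, at 2.11 ± 0.12. In hypothalamus 2 were higher and 7 lower of 12, where 44.8% and 35.9% were called, and citrate synthase was among the higher, at 0.77 ± 0.09.

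Cytochrome c, the carrier between complexes III and IV, also has a testis form. Cyct read 1967, 3034 and 1556 in testis and 15.5 to 111 in all other samples (4.57 ± 0.24 against the male tissues, limma adjusted p = 8.11e-10), while Cycs, the broad form, was 3457 against 5382 (-0.62 ± 0.14). Cyct passed the filter on low values only in the comparisons with testis. It was thus tested through the samples in which it is high, and its p-value carries that limit. Of the 12 carriers and channels, 4 were higher and 8 lower in testis, against the same background. The porin Vdac1 was 564 against 5875 (-3.36 ± 0.22) and the related Vdac2 10587 against 4647 (1.23 ± 0.11). The ADP/ATP carrier Slc25a5 was 2105 against 10277 (-2.17 ± 0.15). Slc25a4, another ADP/ATP carrier, divided kidney from liver, at 6966 against 510.4 (3.69 ± 0.18), as did Atpif1, the inhibitor of complex V, at 2919 against 409.6 (2.74 ± 0.16).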

How the data were processed

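The authors deposited 1 linear intensity per probe set and array; the software that made it is not given in the sources used here, and the equal trimmed means show a common scale. The intensity values were scaled to a 2% trimmed mean of 500 without 64 control probe sets, and log2(intensity + 48.3), the 20th percentile, was taken, which understates differences of dim genes. Log2 values were averaged over the 2 arrays of each RNA sample. Probe sets above the 40th percentile in at least 3 RNA samples of a comparison were tested with limma 3.58.1 (lmFit, eBayes) in R 4.3.3, with Benjamini-Hochberg adjustment over all tested probe sets (threshold 0.05), and the script was tested on simulated data. Means are of linear intensity, errors the SE of the fit. Detection calls were not used. Of the probe sets, 20380 had 1 symbol, 691 several and 1555 none; those with several were left out, 8 of them naming a member. All 84 member genes matched the GRCm38.p6 gene table, used for names, chromosomes and RefSeq promoters. Probe sets can also read related genes and processed copies.

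Named genes were the isoform families, up to 10 called genes of the largest difference in each direction without overlap, up to 3 genes of lowest p per complex and those with conflicting probe sets. Members, lists and tests were chosen with earlier results of these data known. The promoters shown and the genes named in the section on sexes, carriers and tissue order were chosen after their values were seen. Deviations of samples of the same number correlated in kidney at 0.59, 0.424 and 0.627 for numbers 1 to 3, where pairs of different numbers reached -0.116. In liver they correlated at 0.535, 0.138 and 0.48, where pairs of different numbers reached 0.288. Hypothalamus had 0.39, 0.099 and 0.328 (different numbers up to 0.089) and the gonads 0.042, 0.146 and 0.042 (up to 0.033). Among the kidney and liver groups the range was 0.131 to 0.608 (different numbers up to 0.267). Python 3.11.15 and matplotlib 3.10.9 made the plots.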

Additional observations from a re-analysis of the deposited data

How the results depend on the processing

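Of 131 called results of named genes, 105 were called under every alternative run: the replicate block, single arrays, other pseudocounts, no filter, quantile normalization, median centring, a joint fit of all groups, an intensity trend and leaving out each RNA sample. The named genes were chosen partly for large differences and low p, which favours kept calls. Over 2906 alternatives, 2808 kept direction and call, 92 kept the direction only and 6 reversed. The reversals came with another scaling, and the cause was not tested: after quantile normalization Atp5g3 (0.02), Cox6a1 (0.20) and Ndufaf7 (-0.05) in hypothalamus and Uqcrb in kidney against liver (0.27), and after median centring Ndufaf7 in hypothalamus (-0.07) and Sdhc in testis against ovary (0.01). Counting all probe sets in place of 1 per gene gave 71 calls in testis against ovary, 86 in kidney against liver, 128 in hypothalamus, 104 in testis against the male tissues and 109 in ovary, as more features were counted. Quantile normalization gave 73 in kidney against liver. Of the calls of all members it kept 31 of 38 in testis against ovary and 45 of 46 in kidney against liver. It kept 47 of 71 in hypothalamus, 58 of 60 in testis against the male tissues and 49 of 62 in ovary. Median centring kept 29, 39, 67, 47 and 60 in the same order.

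Leaving out 1 RNA sample gave 30 to 54 calls in testis against ovary, 41 to 50 in kidney against liver, 69 to 73 in hypothalamus, 52 to 64 in testis against the male tissues, 54 to 64 in ovary, and 0 for the sexes. With the replicate number as a block these counts were 39, 53, 72, 59 and 63, and 0 for the sexes. Of the named calls, the block ended only that of Sdhc in testis against ovary (limma adjusted p = 0.0818). Dim members such as Cox8b and Cox7a1 have values near the pseudocount, which limits their differences.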

Other observations

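Regulators of mitochondrial genes did not share 1 order of tissues. Ppargc1a, a coactivator of mitochondrial genes, was 423 in kidney against 173 in liver (1.08 ± 0.14 as log2, limma adjusted p = 2.65e-05), and Esrra, a nuclear receptor of respiratory genes, 857 against 304 (1.37 ± 0.11). In hypothalamus Ppargc1b, a related coactivator, was 785 against 174 in liver and kidney (2.05 ± 0.16). In testis against the male tissues, where 30.0% of all genes were called higher and 45.9% lower, 1 of 13 regulators was higher, Tfb1m, a methyltransferase of mitochondrial ribosomal RNA, at 908 against 201 (1.98 ± 0.14), and 5 were lower, among them Ppargc1a (-1.68 ± 0.16) and Gabpa, a factor that binds the ETS motif (-1.42 ± 0.15). Kidney against liver had 5 higher and 4 lower of 13, where 33.6% and 23.5% of all genes were called, and hypothalamus 6 and 5, where 44.8% and 35.9% were.

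Of 20 genes for assembly and for copper or haem delivery, 10 were higher and 2 lower in kidney against liver, 1 and 12 in hypothalamus, and 3 and 13 in testis, against the same shares of all genes. Sco2, which delivers copper to complex IV, was 2579.5 in liver and 318 in kidney (-2.81 ± 0.15). Acad9, a complex I assembly factor, was 137 in testis against 679 (-2.10 ± 0.26), while Atpaf2, an assembly factor of complex V, was 596 against 216 (1.28 ± 0.13).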
